A study of Mus musculus with 8 samples.

Results

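The clustered protocadherin genes of mouse embryonic stem (ES) cells are described here: every gene on chromosome 18 whose symbol is Pcdha, Pcdhb, Pcdhga, Pcdhgb or Pcdhgc followed by a number. The rule found 56 of the 47069 genes in the deposited tables, namely 12 alpha, 22 beta, 12 gamma A, 7 gamma B and 3 gamma C genes. Levels are given in CPM, the counts of a gene per 1000000 counts of its library, with library sizes scaled by the TMM factors of edgeR.

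Poly-A RNA was sequenced from ES cells of strain C57BL/6, self-renewing cultured cells that derive from the early embryo. There were 8 libraries in 4 groups of 2: wild type (WT), a Pcgf3 knockout (Pcgf3KO), a Pcgf5 knockout (Pcgf5KO) and a knockout of both genes (DKO), the last 3 generated by Cas9. The products of Pcgf3 and Pcgf5 are RING finger subunits of variant Polycomb repressive complexes. All groups were grown with fetal calf serum and leukemia inhibitory factor. The cultures contained a feeder layer of embryonic fibroblasts inactivated by mitomycin-C, whose RNA can be present in every library. The labels do not say whether the libraries of a group came from separate cultures or clones. The p-values therefore measure the spread between these libraries, which may be technical.

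Clustered protocadherins are cadherin-like adhesion proteins of the cell surface, best known from neurons, where each cell uses its own small set of them to tell its own branches from those of other cells. An alpha or gamma transcript joins a variable exon, which has its own promoter and encodes the outer part of the protein, to constant exons shared by the whole subcluster, which encode its inner part. Beta genes have no such constant exons. Promoter choice is linked to DNA methylation, to the looping protein CTCF with cohesin, and to the silencing protein SMCHD1. The alpha C-type and gamma C genes differ from the other isoforms in that most neurons use them without the random choice.

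The genes lie in a row on the plus strand of chromosome 18 (mm10, 1-based): alpha from 36930184 to 37187661, beta from 37264938 to 37524479, and gamma from 37661793 to 37841873. The positions of all 56 matched those of the reference annotation (GENCODE release M21). The symbol Pcdha11 belongs to 2 gene identifiers, ENSMUSG00000007440 and ENSMUSG00000102206. Pcdhgb8 is annotated as a polymorphic pseudogene.

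The arrangement of exons bears on how far a gene can be counted. Among alpha genes a median of 54.3% of a gene's exonic bases (range 53.4% to 93%) also belonged to another annotated gene. The median was 46.2% for gamma A, 45.2% for gamma B and 39.6% for gamma C genes, and 0% for beta genes, among which Pcdhb12 was the highest with 63.5%. Reads from shared bases cannot be given to 1 gene, and how the authors' counting treated them is not given in the sources used here. Pcdhga10 had 0 exonic bases of its own and 0 counts in every full table. Pcdha4 had 404 such bases and 0 counts.

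**Figure D1:**
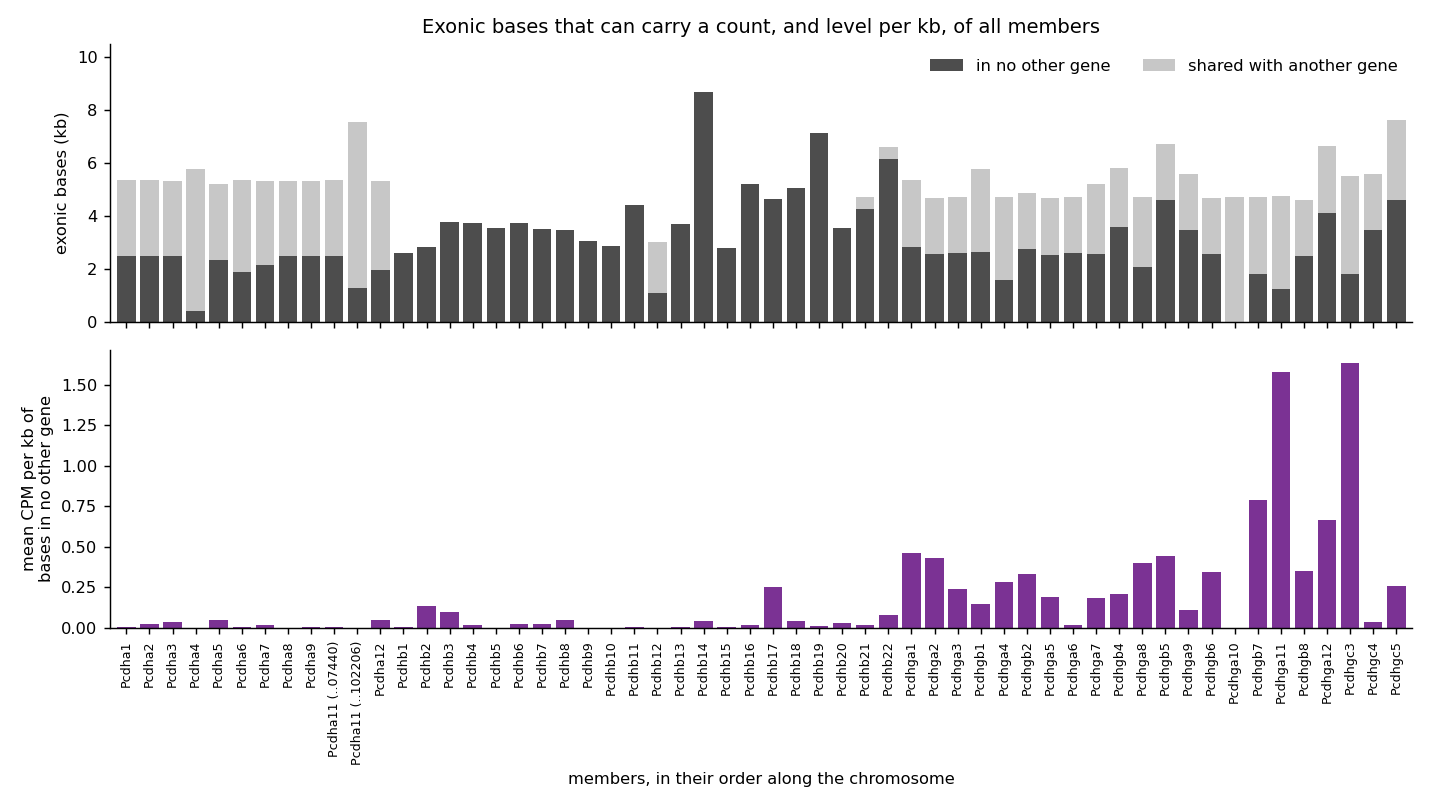
Upper plot: exonic bases of each of the 56 members in kb, split into bases in no other annotated gene and bases shared with another gene. Lower plot: mean CPM over 7 libraries per kb of the bases in no other gene (no bar for Pcdhga10, which has none); beta genes are mostly unshared but low, and Pcdhgc3 and Pcdhga11 are the highest.

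The 7 complete tables summed to 12652616 to 19923964 counts per library. The table of WT replicate 1 used here broke off after 8093 genes (17.2% of the list, 3459002 counts) and listed 13 members. WT is therefore 1 library, replicate 2, wherever all 56 members are considered. Pcgf3 had 110 CPM in that WT library, 60.5 and 66.1 in Pcgf3KO and 67.2 and 86.6 in DKO. Pcgf5 had 20.7 CPM in WT, 9.06 and 12.3 in Pcgf5KO and 13.5 and 13.9 in DKO. A count over a whole gene does not show whether a Cas9 edit left a working product. All 11 ES cell markers were detected in every complete library, with a summed level of 3363 CPM in WT and 3491 to 4075 CPM in the knockouts.

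Clustered protocadherins were rare in these cells. All 56 genes together held 710 counts in WT replicate 2 and 331 to 470 counts in a knockout library. Over the 7 libraries 8 members had no count at all (3 alpha, 4 beta, 1 gamma A), 26 had a count in every library, and 32 never reached 10 counts. A gene without a count in a library may have had up to 3 counts of the total there, which is 0.151 to 0.237 CPM depending on the library and covers counting error only. Gamma A genes took 39.9% of the members' counts, gamma B 27.7%, gamma C 16.6%, beta 14.4% and alpha 1.49%. The 5 members with the most counts, Pcdhgc3, Pcdhga12, Pcdhgb5, Pcdhga11 and Pcdhgb7, took 42.6%.

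Levels between genes were compared per kb of exonic bases found in no other gene, as means over the 7 libraries. On this scale Pcdhgc3 (1.64 CPM per kb) and Pcdhga11 (1.58) stood highest, before Pcdhgb7 (0.788), Pcdhga12 (0.664), Pcdhga1 (0.462), Pcdhgb5 (0.442) and Pcdhga2 (0.429). Pcdhb17, the highest beta gene, had 0.254. Per kb of all exonic bases the order began with Pcdhgc3 (0.542), Pcdhga11 (0.418) and Pcdhga12 (0.411), so that Pcdhga11 and Pcdhga12 were nearly level. Over the 24 members that could be tested, the orders on both scales had a Spearman correlation of 0.91. Position along the array and level were weakly related, with Spearman's rho of 0.21 over the 21 gamma genes with bases of their own and 0.1 over the 22 beta genes. These correlations are across genes of the same libraries and are descriptions.

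How did the level of the cluster compare between the groups? The summed level of all 56 members was 40.4 CPM in WT replicate 2, 20.4 and 24.1 in the Pcgf3KO libraries, 26.2 and 26.8 in those of Pcgf5KO, and 22.6 and 23.2 in those of DKO. The WT library was above all 6 knockout libraries, by 1.82 times the Pcgf3KO mean, 1.53 times the Pcgf5KO mean and 1.77 times the DKO mean. Its exact Poisson 95% interval, 37.5 to 43.5, which covers counting error only, did not reach any knockout library. The sum did not rest on Pcdhgc3, the member with the most counts: without it the WT library had 35.4 CPM and the knockouts 18.4 to 24.3. No p is given for a sum over members.

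Each subcluster had its highest sum in the WT library. Alpha genes summed to 1.37 CPM in WT (24 counts) and to 0.101 to 0.647 in the knockouts (2 to 8 counts a library). Beta genes summed to 7.003 CPM in WT and 2.37 to 4.20 in the knockouts, with the WT library at 2.46 times the Pcgf3KO mean, 1.68 times the Pcgf5KO mean and 2.51 times the DKO mean. Gamma C genes summed to 7.69 CPM in WT and 3.15 to 4.32 in the knockouts. Gamma B genes summed to 10.9 CPM in WT and 5.34 to 8.01 in the knockouts. Gamma A genes differed least, with 13.4 CPM in WT and 9.22 to 11.1 in the knockouts. For alpha, gamma A and gamma B the Poisson interval of the WT library overlapped those of Pcgf5KO in part. Without Pcdhga12, the gamma A member with the most counts, the gamma A sum was 11.3 CPM in WT and 6.54 to 8.17 in the knockouts.

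**Figure D2:**
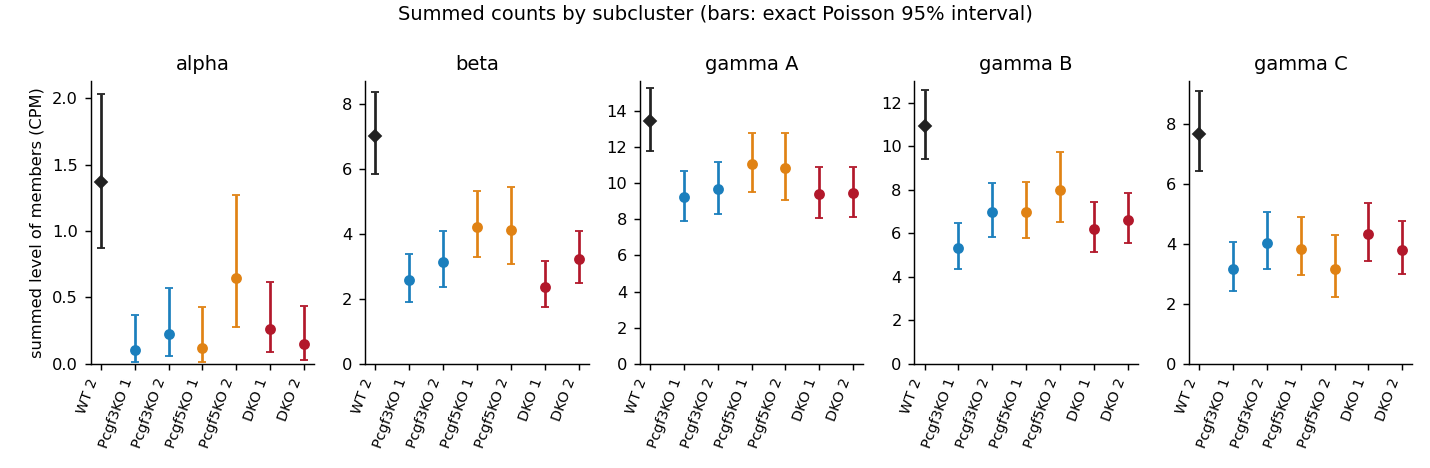
Summed level of the members of each subcluster (CPM, TMM-scaled) in each of the 7 complete libraries; points are libraries and bars exact Poisson 95% intervals of the summed counts. The WT library is the highest in all 5 panels, from 13.4 CPM for gamma A to 1.37 CPM for alpha.

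Summed levels of other cell types' markers were also higher in the WT library than in every knockout library. The 10 trophectoderm and endoderm markers summed to 714.7 CPM in WT and 130 to 308.7 in the knockouts, the 14 neuron and neural progenitor markers to 671.6 against 416.8 to 585.5, and the 22 feeder fibroblast markers to 1036 against 823.8 to 1010. In the test across all genes 3 of 9 tested trophectoderm and endoderm markers fell in Pcgf3KO, 3 in Pcgf5KO and 4 in DKO. Of 12 neural markers, 2, 1 and 4 fell in the same order, and of 18 feeder markers 5, 1 and 5. Over all genes 1.28%, 1.68% and 1.89% were called lower. The median log2 fold changes in the same order were −1.152, −1.445 and −1.152 for trophectoderm and endoderm markers. They were −0.579, −0.451 and −0.519 for neural markers and −0.792, −0.49 and −0.466 for feeder markers. In the 7 libraries 0 to 2 feeder markers and 0 to 2 neural markers were at 0 counts, and 0 trophectoderm and endoderm markers. Their part in the protocadherin difference was not tested. In such bulk samples fewer cells of a type and less RNA per cell cannot be told apart.

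Single genes were tested with edgeR's quasi-likelihood test over all 15669 genes that passed the filter on low counts, and calls were made at an adjusted p (Benjamini-Hochberg) of 0.05 or less. The filter, which asks for about 0.553 CPM in at least 1 library, left 24 members: 5 beta, 10 gamma A, 7 gamma B, 2 gamma C and 0 alpha. Pcdhb2, Pcdhb3 and Pcdhb14 reached that level in the WT library alone, so a lower value in the knockouts was built into their passing. WT enters this fit as 1 library that is assumed to vary like those of the other groups, so WT has no replicate check in these fold changes.

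By this test 0 of 24 members were called in Pcgf3KO against WT, where 2.36% of all genes were called, 0 in Pcgf5KO, where 2.99% were, and 0 in DKO, where 3.22% were. DESeq2 also called 0 in each. At an unadjusted p of at most 0.05, edgeR counted 7 members in Pcgf3KO, 2 in Pcgf5KO and 9 in DKO, all lower than WT, and DESeq2 4, 1 and 2. Pcdhb3 and Pcdhb14, which passed the filter through WT alone, are among the 7 in Pcgf3KO. Of the 9 in DKO, 3 are among the 5 tested beta genes, so some of them also passed through WT alone. The share of all genes at that unadjusted p is not given here or below, so such counts have no background to be judged by. The lowest adjusted p of edgeR was 0.101, 0.096 and 0.0724 in Pcgf3KO, Pcgf5KO and DKO. The median log2 fold change of the tested members was −0.76 in Pcgf3KO (23 of 24 below 0), −0.58 in Pcgf5KO (21 of 24) and −0.80 in DKO (21 of 24), beside 0.00, 0.01 and 0.01 over all genes. These figures include the 3 beta genes that passed only through the WT library. Among the 16 members with 10 counts in both libraries of a knockout group, a filter in which the WT library plays no part, the medians were −0.60 (15 of 16 below 0), −0.47 (14 of 16) and −0.70 (13 of 16). For all knockout libraries together against WT, a comparison added after seeing the data, edgeR and DESeq2 called 0 members, where 3.54% of all genes were called by edgeR. The 3 comparisons share the WT library, so their values for a member are not independent of each other.

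Both DKO libraries bore on these counts. Without DKO replicate 1, edgeR called 6 members lower in Pcgf3KO, 3 in Pcgf5KO and 4 in DKO, where 10.3%, 13.3% and 8.2% of all genes were called lower. Without DKO replicate 2 it called 6, 3 and 5, where 10.1%, 13.1% and 17.6% of all genes were. Pcdhb3, whose lower value was built into its passing the filter, is among the 6 called in Pcgf3KO in either fit and among the 4 called in DKO without DKO replicate 1. Leaving out any other knockout library left 0 members called against WT.

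The WT library was above all 6 knockout libraries for 16 of the 24 tested members, beside 19.5% of all genes tested, and below all 6 for 0 members, beside 18.8%. Those with WT above include Pcdhb2, Pcdhb3 and Pcdhb14, for which this was fixed by passing the filter through WT alone. Among the 16 members that passed the filter without a part of WT, the WT library was above all 6 for 11, beside 19.3%, and below for 0, beside 19% of genes.

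**Figure D3:**
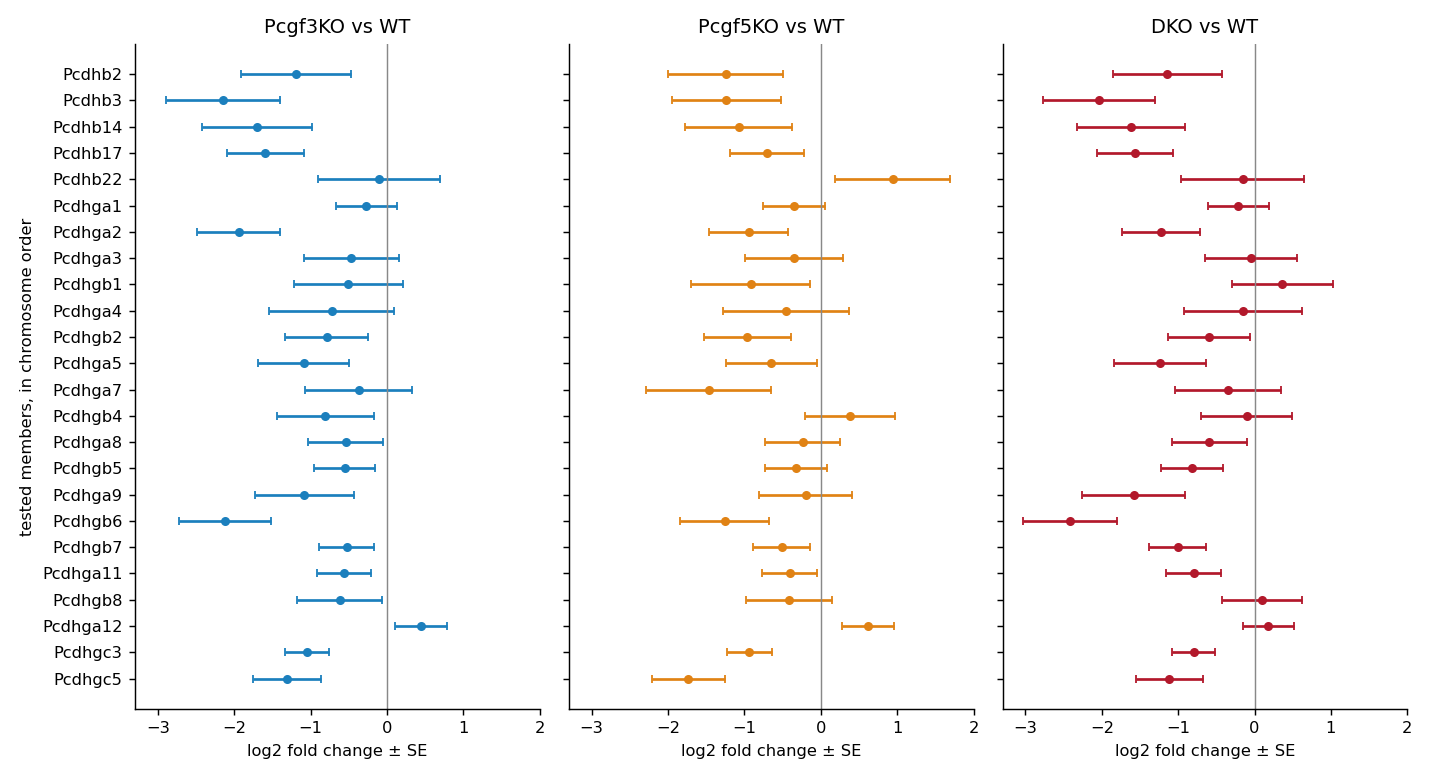
Log2 fold change against WT with its standard error for the 24 tested members in Pcgf3KO, Pcgf5KO and DKO (edgeR, 7 libraries, WT as 1 library). Most points lie left of 0, with medians of −0.76, −0.58 and −0.80, and none passed the adjusted threshold.

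Gamma C genes encode the C-type isoforms of the gamma subcluster. Pcdhgc3, the member with the most counts, had 5.01 CPM in WT, 2.02 and 2.85 in the Pcgf3KO libraries, 2.78 and 2.43 in those of Pcgf5KO, and 2.79 and 2.97 in those of DKO. The WT library was well above the rest, and the knockout groups overlapped each other. Its log2 fold change was −1.05 ± 0.29 (SE) in Pcgf3KO, −0.93 ± 0.29 in Pcgf5KO and −0.80 ± 0.28 in DKO, with adjusted p of 0.101, 0.133 and 0.174. Without DKO replicate 1 the Pcgf3KO and Pcgf5KO values passed at −1.05 (adjusted p = 0.0021) and −0.93 (adjusted p = 0.00637), and without DKO replicate 2 at the same sizes (0.00212 and 0.00646). In the latter fit the DKO value was −0.84, from 1 DKO library.

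Pcdhgc5, the last gene of the array, had 2.51 CPM in WT, 1.06 and 0.951 in the Pcgf3KO libraries, 0.829 and 0.647 in those of Pcgf5KO, and 1.53 and 0.791 in those of DKO. All 6 knockout libraries were below the WT library, and the DKO libraries lay apart from each other. The log2 fold change was −1.31 ± 0.45 in Pcgf3KO (adjusted p = 0.18), −1.74 ± 0.48 in Pcgf5KO (adjusted p = 0.096) and −1.12 ± 0.44 in DKO (adjusted p = 0.208). Without DKO replicate 1 it passed in Pcgf3KO and Pcgf5KO, at −1.31 and −1.73. Its DKO value in that fit, from 1 DKO library against 1 WT library, was −1.66. Without DKO replicate 2 it passed in Pcgf3KO and Pcgf5KO (adjusted p = 0.00889 and 0.00126). Pcdhgc4, known for a role in the survival of neurons, was at the floor, with 3 counts in WT, 2 and 4 in the Pcgf3KO libraries, 4 and 1 in those of Pcgf5KO, and 0 and 1 in those of DKO, and was not tested.

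Gamma A and gamma B genes encode the isoforms that neurons choose at random. Pcdhga12 was the only tested member with a log2 fold change above 0 in all 3 comparisons against WT, with 2.11 CPM in WT, 2.62 and 3.13 in the Pcgf3KO libraries, 2.90 and 3.64 in those of Pcgf5KO, and 2.06 and 2.72 in those of DKO. The WT library exceeded DKO replicate 1 only. Its log2 fold change against WT was 0.45 ± 0.34, 0.62 ± 0.34 and 0.18 ± 0.34 in Pcgf3KO, Pcgf5KO and DKO, and none passed (adjusted p = 0.585, 0.352 and 0.803). Pcdhga1 was nearly level, with 1.54 CPM in WT and 1.07 to 1.42 in the knockouts.

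Pcdhga11 had 2.79 CPM in WT, 1.92 and 1.85 in the Pcgf3KO libraries, 2.31 and 1.86 in those of Pcgf5KO, and 1.27 and 1.93 in those of DKO. The WT library was above all 6, by less than for the gamma C genes. Pcdhga2, near the start of the gamma array, had 2.28 CPM in WT, 0.353 and 0.839 in the Pcgf3KO libraries, 1.42 and 0.89 in those of Pcgf5KO, and 1.21 and 0.741 in those of DKO. The WT value was again the highest, and the Pcgf3KO value, −1.94 ± 0.55, had an adjusted p of 0.109, with 0.00121 without DKO replicate 1 and 0.00101 without DKO replicate 2.

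Pcdhgb5 had 2.79 CPM in WT and 1.31 to 2.52 in the knockouts, of which Pcgf3KO replicates alone spanned 1.31 and 2.52. Pcdhgb7 had 2.11 CPM in WT, 1.51 and 1.40 in the Pcgf3KO libraries, 1.42 and 1.54 in those of Pcgf5KO, and 0.949 and 1.14 in those of DKO, which were the lowest. Pcdhgb2 had 1.42 CPM in WT and 0.58 to 1.29 in the knockouts. Pcdhgb8, the polymorphic pseudogene, had 1.03 CPM in WT, within the knockouts' 0.533 to 1.27.

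Pcdhgb6, named after its values were seen, had the lowest log2 fold change of a tested member in DKO. It had 2.33 CPM in WT, 0.504 and 0.559 in the Pcgf3KO libraries, 0.769 and 1.21 in those of Pcgf5KO, and 0.158 and 0.692 in those of DKO. The WT library was above the knockouts, and DKO replicate 1 was the lowest. The log2 fold change was −2.12 ± 0.61 in Pcgf3KO (adjusted p = 0.112) and −2.42 ± 0.62 in DKO (adjusted p = 0.0724, the lowest of a member against WT). In DKO it was −1.75 without DKO replicate 1 and −3.82 without DKO replicate 2, each from 1 DKO library against 1 WT library. In Pcgf3KO it passed at −2.12 without either (adjusted p = 0.000386 and 0.000474).

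**Figure D4:**
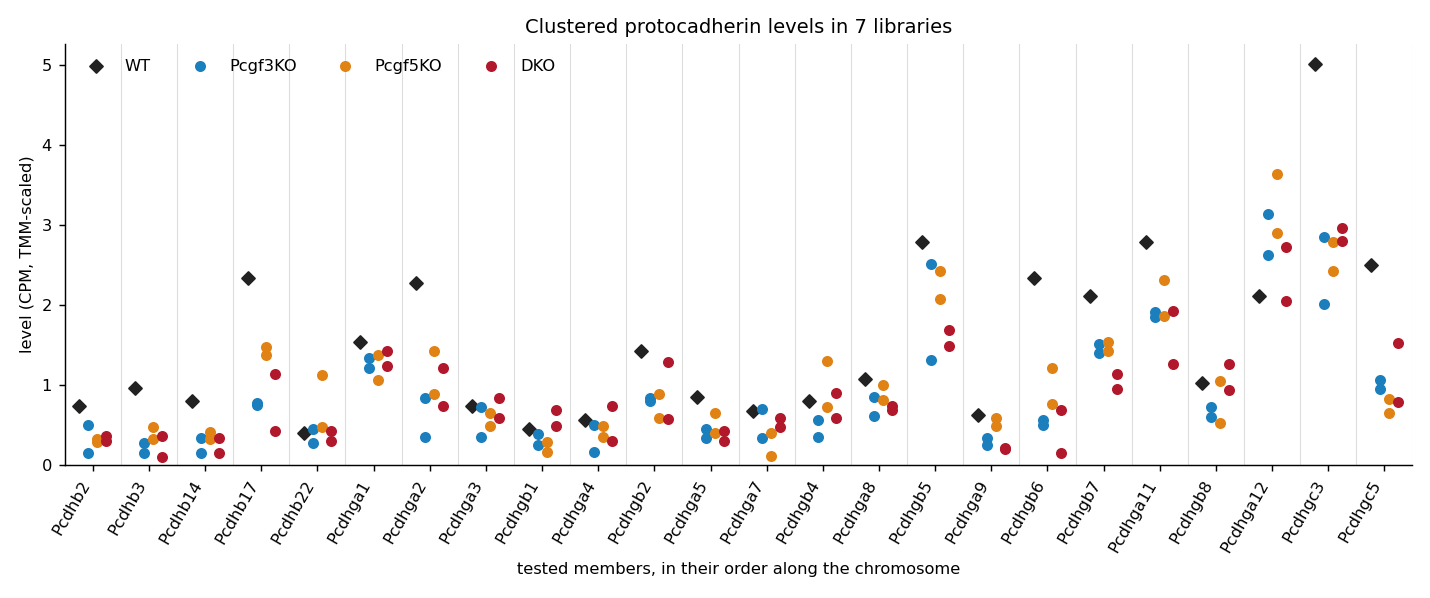
Level (CPM, TMM-scaled) of the 24 tested members in the 7 complete libraries, in chromosome order; diamonds are the WT library and circles single knockout libraries. The WT diamond is the topmost point for 16 members, with Pcdhgc3 at 5.01 CPM, while Pcdhga12 has its WT value of 2.11 CPM near the bottom. For Pcdhb2, Pcdhb3 and Pcdhb14, which passed the filter through WT alone, a topmost WT diamond was built in.

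Beta genes have a single coding exon and no constant exons. Pcdhb17 had 2.33 CPM in WT, 0.756 and 0.783 in the Pcgf3KO libraries, 1.48 and 1.38 in those of Pcgf5KO, and 0.422 and 1.14 in those of DKO. The WT library was the highest, and the Pcgf5KO libraries lay between it and the others. Its log2 fold change was −1.59 ± 0.50 in Pcgf3KO (adjusted p = 0.151) and −1.56 ± 0.50 in DKO (adjusted p = 0.137). Without DKO replicate 1 the Pcgf3KO value passed at −1.59, and without DKO replicate 2 also at −1.59. The DKO value in the latter fit was −2.45, from 1 DKO library.

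The other beta genes were lower. Pcdhb3 had 0.968 CPM in WT and 0.099 to 0.473 in the knockouts, and Pcdhb2 had 0.74 and 0.151 to 0.503. Pcdhb22, the last beta gene, had 0.399 CPM in WT, which exceeded 2 of the 6 knockout libraries (0.28 to 1.13). Pcdhb14, named after its values were seen, had 0.797 CPM in WT and 0.151 to 0.414 in the knockouts. The remaining 17 beta genes did not pass the filter.

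Alpha genes were too rare for a test, with at most 7 counts in a library. Pcdha2 had 7 counts in WT and 0 in all 6 knockout libraries. Pcdha12 had 5 counts in WT and 0 to 2 in the knockouts, Pcdha3 had 3 and 0 to 3, and Pcdha5 had 4 and 0 to 5. The alpha C-type genes fall outside the rule: Pcdhac2 had 1.02 CPM in WT and 0.592 to 1.13 in the knockouts, overlapping, and Pcdhac1 had 0 to 2 counts.

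A second WT library was available for the 13 members listed in WT replicate 1. In a fit of all 8 libraries over genes listed in all of them, CPM is relative to those genes alone and is not comparable with the values above. The 13 members summed to 68.0 and 74.2 CPM in WT, 32.9 and 33.2 in the Pcgf3KO libraries, 40.8 and 43.4 in those of Pcgf5KO, and 37.8 and 33.0 in those of DKO. Both WT libraries were above all 6 knockout libraries. Of the 8 members that passed the filter, 5 had both WT libraries above all 6 (Pcdhga2, Pcdhga5, Pcdhgb6, Pcdhgb7 and Pcdhgc5), beside 11.3% of all 2702 genes tested.

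Pcdhgc5 had 17.1 and 14.1 CPM in the WT libraries, 5.96 and 5.37 in the Pcgf3KO libraries, 4.65 and 3.62 in those of Pcgf5KO, and 8.64 and 4.47 in those of DKO. It fell by 1.46 ± 0.36 on the log2 scale in Pcgf3KO (adjusted p = 0.0412, 1 of 8 members, with 2.33% of all genes called lower) and it fell by 1.89 ± 0.40 in Pcgf5KO (adjusted p = 0.0183, 1 of 8 members, 4.29%). In DKO it was −1.26 ± 0.35 and did not pass (adjusted p = 0.0522), but it passed at −1.27 with a replicate block (adjusted p = 0.029). Without DKO replicate 1 it was −1.81, from 1 DKO library. Leaving out 1 library at a time, the Pcgf3KO value lay between −1.59 and −1.31 and passed in 2 of 8 fits, those without a DKO library. The Pcgf5KO value lay between −2.10 and −1.74 and passed in 4 of 8, failing without either WT library (adjusted p = 0.111 and 0.0659) and without either Pcgf5KO library (0.16 and 0.162). DESeq2 gave an adjusted p of 0.0676 for the Pcgf3KO value.

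In DKO against WT the same fit called Pcdhgb6 and Pcdhgb7 lower, 2 of 8 members, with 3.7% of all genes called lower. Pcdhgb6 had 8.29 and 13.2 CPM in WT, 2.84 and 3.16 in the Pcgf3KO libraries, 4.32 and 6.79 in those of Pcgf5KO, and 0.894 and 3.91 in those of DKO. It fell by 2.11 ± 0.53 in DKO (adjusted p = 0.0344), and passed only in 1 of the 8 fits with a library left out, the one without DKO replicate 2 (adjusted p = 0.00152). Pcdhgb7 had 13.7 and 11.9 CPM in WT, 8.52 and 7.90 in the Pcgf3KO libraries, 7.97 and 8.60 in those of Pcgf5KO, and 5.36 and 6.43 in those of DKO. It fell by 1.11 ± 0.31 in DKO (adjusted p = 0.0469), passed only in the fit without DKO replicate 2 (adjusted p = 0.028) of the 8, and had an adjusted p of 0.141 with DESeq2. For each of these 2 members, which were picked by their call in this comparison, both WT libraries were above both DKO libraries. The share of all genes with WT and DKO so separated is not given here.

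**Figure D5:**
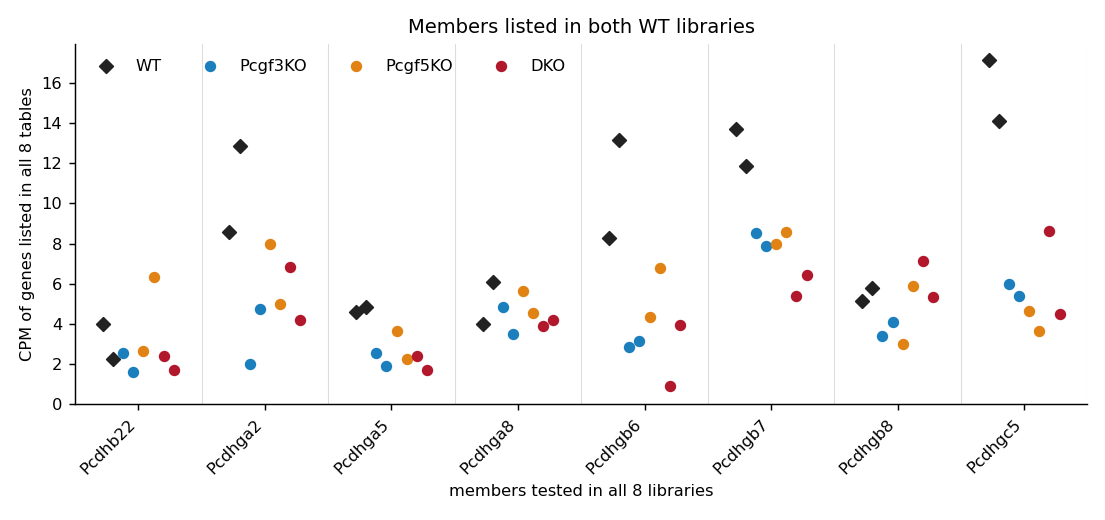
Level (CPM of the genes listed in all 8 tables) of the 8 members tested with both WT libraries; diamonds are WT and circles single knockout libraries. Both diamonds lie above every circle for Pcdhga2, Pcdhga5, Pcdhgb6, Pcdhgb7 and Pcdhgc5, with Pcdhgc5 at 14.1 and 17.1 CPM in WT and at most 8.64 in a knockout.

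How did the knockout groups compare with each other? In the 7-library test edgeR called 0 of 24 members between DKO and Pcgf3KO, where 1.74% of all genes were called, 0 between DKO and Pcgf5KO (2.28%), and 0 between Pcgf5KO and Pcgf3KO (0.14%). DESeq2 called 0 in each. At an unadjusted p of at most 0.05 edgeR counted 0, 1 and 1 members, and DESeq2 0 in each. The median difference of the members was 0.05, −0.38 and 0.22 on the log2 scale, with median standard errors of 0.51, 0.49 and 0.52, and these values do not show that the groups were alike.

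The 2 members with an unadjusted p in that range were named after their values were seen. Pcdhga9 had 0.211 and 0.198 CPM in DKO and 0.592 and 0.485 in Pcgf5KO, a difference of −1.39 ± 0.60 (adjusted p = 0.184). Pcdhgb4 had 1.30 and 0.728 CPM in Pcgf5KO and 0.353 and 0.559 in Pcgf3KO, a difference of 1.19 ± 0.52 (adjusted p = 0.581). Without DKO replicate 2, which leaves 1 DKO library, the difference of DKO from Pcgf5KO was −1.75 for Pcdhb17 and −2.55 for Pcdhgb6.

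The interaction compares the DKO change with the sum of the changes in Pcgf3KO and Pcgf5KO, and in it the WT library enters with a positive sign. By edgeR 0 of 24 members were called, where 3.79% of all genes were, and 3 had an unadjusted p of at most 0.05 (DESeq2 called 0, with 0 unadjusted). The values were 1.93 ± 0.63 for Pcdhgc5 (adjusted p = 0.116), 1.18 ± 0.39 for Pcdhgc3 (adjusted p = 0.117) and 1.67 ± 0.73 for Pcdhga2 (adjusted p = 0.21). Without DKO replicate 1 the Pcdhgc3 value was 1.22. Without DKO replicate 2 the values were 2.33 for Pcdhgc5, 1.14 for Pcdhgc3, 1.98 for Pcdhga2 and −1.09 for Pcdhga12. Each of these fits holds 1 DKO library and 1 WT library.

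In the fit of 8 libraries 1 of 8 members, Pcdhgc5, had a called interaction (2.09 ± 0.57, adjusted p = 0.0499), where 3.52% of all genes were called higher, and it passed in 1 of 8 fits with a library left out.

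Genes known to act on the cluster were tested in the same 7-library fit. Of 27 genes for CTCF, cohesin, DNA methylation and related silencing, 1 rose in Pcgf3KO, 2 rose and 1 fell in Pcgf5KO, and 1 rose in DKO, with medians of 0.07, 0.00 and 0.09. Over all genes 2.36%, 2.99% and 3.22% were called in the same comparisons. Dnmt3l, a cofactor of the de novo DNA methyltransferases, had 212 CPM in WT, 642 and 695 in the Pcgf3KO libraries, 564 and 559 in those of Pcgf5KO, and 484 and 501 in those of DKO. It rose by 1.66 ± 0.09 in Pcgf3KO, 1.40 ± 0.09 in Pcgf5KO and 1.22 ± 0.09 in DKO (adjusted p = 0.000207, 0.000692 and 0.000563). In Pcgf5KO Uhrf1, which brings Dnmt1 to replicated DNA, rose by 0.41 ± 0.09 (adjusted p = 0.0425) and Stag1, a cohesin subunit, fell by 0.47 ± 0.10 (adjusted p = 0.04).

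Calls among other cadherins went in both directions, while most of their log2 fold changes were below 0. Of 12 tested non-clustered protocadherins and giant cadherins, 1 rose and 1 fell in Pcgf3KO, 2 rose in Pcgf5KO, and 1 rose and 1 fell in DKO. Over all genes 2.36%, 2.99% and 3.22% were called. The medians of the 12 were −0.433 (9 below 0), −0.255 (9) and −0.215 (8) in the same order. Celsr1, a planar polarity cadherin, had 20.6 CPM in WT and 32.1 to 41.3 in the knockouts, and rose in Pcgf3KO by 0.76 ± 0.14 (adjusted p = 0.0232), in Pcgf5KO by 0.67 ± 0.14 (adjusted p = 0.0374) and in DKO by 0.90 ± 0.14 (adjusted p = 0.0104). Celsr3 rose in Pcgf5KO by 0.62 ± 0.13 (adjusted p = 0.037). Pcdh19, a neuronal protocadherin, had 9.68 CPM in WT, 3.83 and 4.31 in the Pcgf3KO libraries, 4.91 and 6.31 in those of Pcgf5KO, and 17.4 and 14.1 in those of DKO. It fell by 1.25 ± 0.23 in Pcgf3KO (adjusted p = 0.0231) and had a positive interaction (2.75 ± 0.29, adjusted p = 0.00292). Pcdh17 had 30 counts in WT and 4 and 5 in DKO, and fell by 2.86 ± 0.53 there (adjusted p = 0.0227).

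Of 15 tested classical cadherins and catenins 1, 1 and 2 fell in Pcgf3KO, Pcgf5KO and DKO. Their medians were −0.117 (10 below 0), −0.124 (11) and −0.315 (14) in the same order. Cdh2, neural cadherin, had 28.9 CPM in WT and 11 to 17.8 in the knockouts, and fell in all 3 knockout groups. Its log2 fold change was −0.71 ± 0.15 in Pcgf3KO (adjusted p = 0.0469), −1.25 ± 0.16 in Pcgf5KO (adjusted p = 0.00451) and −1.28 ± 0.15 in DKO (adjusted p = 0.00304). Jup, plakoglobin, fell by 0.44 ± 0.10 in DKO (adjusted p = 0.0402). Of 17 genes for the proteases that cut protocadherins and their partners inside the cell, edgeR and DESeq2 called 0 against WT, and edgeR counted 3, 8 and 6 at an unadjusted p of at most 0.05 in Pcgf3KO, Pcgf5KO and DKO.

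Genes around the cluster had medians near 0. Of 67 other genes between its ends or within 500 kb of them 30 were tested, with medians of 0.02, 0.10 and −0.07 in Pcgf3KO, Pcgf5KO and DKO. Taf7, a subunit of the general transcription factor TFIID whose gene lies between the beta and gamma arrays, had 141 CPM in WT and 127 to 140 in the knockouts. Arap3, a regulator of small GTPases, fell by 1.12 ± 0.19 in Pcgf5KO (adjusted p = 0.0196). Hbegf, a growth factor of the EGF family, fell by 1.05 ± 0.20 in DKO (adjusted p = 0.0264). The other tested neighbours did not pass against WT.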

How the data were processed

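Reads per Ensembl gene came as 1 table of whole-number counts per library, which the authors deposited. Per the submitters' processing notes, the build was mm10 and the tools included HTSeq 0.6.0, TopHat2 2.0.12 and Cufflinks 2.2.1, with no role or order named. Neither the annotation release nor the treatment of reads in shared exons is given in the sources used here. The kit in the labels' protocols does not mark strand. Symbols were matched through GENCODE M21 for 46488 of 47069 identifiers. 0 entries named no gene.

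The main test was edgeR's quasi-likelihood test on counts (edgeR 4.0.16, limma 3.58.1, R 4.3.3), with group as the single term, TMM scaling, filterByExpr and Benjamini-Hochberg adjustment over all genes tested. All 4 groups entered 1 fit over 7 complete tables (3 residual degrees of freedom), or over 8 libraries for the 8093 genes listed in all (4). The scripts were tested on simulated data. DESeq2 1.42.0, no filter on low counts, a stricter filter, RLE scaling, a replicate block and leaving out each library were the alternatives. A comparison of all knockouts together with WT and the alternatives of the 8-library fit were added after seeing the data. Values after ± are standard errors.

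The members, lists and markers were chosen with earlier results of these data known. Named were members called in the 7-library fit, the 4 with the highest mean count per subcluster, all gamma C genes, and listed genes or neighbours by smallest p against WT. No sequence is printed.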

Additional observations from a re-analysis of the deposited data

Results flagged for a closer look

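In the fit of all 8 libraries the fall of Pcdhgc5 in DKO was smaller than the sum of its falls in Pcgf3KO and Pcgf5KO. In edgeR the DKO level did not pass against Pcgf3KO (0.199 ± 0.397, adjusted p = 0.831) or Pcgf5KO (0.632 ± 0.435, adjusted p = 0.382). The interaction was 2.09 ± 0.57 on the log2 scale (edgeR, adjusted p = 0.0499, 1 of 8 members called, with 3.52% of all genes called higher). Pcdhgc5 was lower than both WT libraries in 6 of 6 knockout libraries, and the DKO libraries, at 8.64 and 4.47 CPM, lay apart. With 1 library left out at a time the value ranged from 1.53 to 2.48 and passed in 1 of 8 fits, the one without DKO replicate 2 (adjusted p = 0.00289). In the others the adjusted p reached 0.193, and DESeq2 gave 0.0621.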

How the results depend on the processing

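Where 0 members were called in the 7-library fit, RLE scaling, DESeq2 and a filter of 10 counts in both libraries of a group also gave 0 in every comparison. Without a filter on low counts 4 members were called lower in Pcgf3KO, 1 in Pcgf5KO and 2 in DKO against WT, and 1 higher in the interaction, where 2.32%, 2.52%, 2.87% and 3.7% of all genes were called. The fit of 8 libraries called 1, 1 and 2 lower and 1 higher. Leaving out 1 knockout library at a time gave 0 to 6 lower in Pcgf3KO, 0 to 3 in Pcgf5KO and 0 to 5 in DKO against WT, 0 to 2 lower in DKO against Pcgf5KO, and 0 to 3 higher and 0 to 1 lower in the interaction. All knockouts together against WT, added after seeing the data, gave 0 called (3.54% of all genes, lowest adjusted p 0.0704, 7 unadjusted and 4 with DESeq2). That count was 6 lower without a filter (2.95% of all genes called lower), 1 with the replicate block (1.99%), 2 with 8 libraries (5.18%) and 0 to 7 with a library left out (12% and 13% without DKO replicate 1 and 2). The highest leave-out counts in DKO against Pcgf5KO and in the interaction came from the fit without DKO replicate 2, with 1 DKO library. There 21.5% of all genes were called lower in DKO against Pcgf5KO. In the interaction 17.3% were called higher and 19.3% lower. The member counts, out of 24 tested, were not above these shares. The cause of the rise without a DKO library was not tested. WT replicate 2 could not be left out of the 7-library fit, since no WT library then remains.

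Deviations of same-numbered libraries had correlations of −0.028, 0.158 and 0.015 between the knockout groups. WT did not enter, and each group gives a single difference between its libraries. These values therefore cannot settle whether the numbers pair libraries. A replicate block called 1 member lower in Pcgf5KO against WT (Pcdhgc5, −2.04, adjusted p = 0.0432, 2.22% of all genes) and 0 in the other 6 comparisons.

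In the 8-library fit, DESeq2 called 0 members lower in Pcgf3KO (2.33% of all genes), 1 in DKO (3.44%) and 0 higher in the interaction (4.18%). The replicate block called 2 lower in Pcgf3KO (3.37%), with Pcdhgb6 added, and 3 in DKO (5.11%), with Pcdhgc5 added. With 1 library left out of this fit, the counts of members called are not given here. A library left out leaves 1 in its group, which is then assumed to vary like the other groups. With total counts as the library size 9 of 42 sums moved by more than their SD or interval. Per kb of all exonic bases the level of 14 of 24 members moved. Depth was low, with at most 88 counts for a member in a library.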
